A study of Mus musculus with 64 samples.

Results

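The late part of the response to a low dose of LPS was examined in C57BL/6 macrophages, as transcript levels at 24 h set against those at 8 h after 0.5 ng/ml. The comparison was taken from the sample labels and holds 4 of the series' 64 arrays, 2 at each time. The series measured bone marrow-derived macrophages of BALB/c and C57BL/6 mice after LPS, IFN-beta or IFN-gamma, with total RNA of each culture on its own Affymetrix array. The question addressed here is which of the genes induced by a low dose had come down again by 24 h, and which had not.

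The cells came from the femurs of male mice aged 7 to 8 weeks. They were kept in 10000 U/ml CSF1, the growth factor of the macrophage lineage, seeded on day 6 at 200000 cells per well of 24-well plates, and treated on day 7. The groups compared were C57BL/6 cells with LPS at 0.5 ng/ml for 8 h and C57BL/6 cells with LPS at 0.5 ng/ml for 24 h. The same times at 5 and 50 ng/ml, and the 2 and 4 h wells at 0.5 ng/ml, served for reference, as did BALB/c cells with LPS at 5 ng/ml for 1, 2, 4 and 8 h and at 0 h. CSF1 was shared by all groups, and no untreated wells at 8 or 24 h were used, so each difference also includes whatever changed with time in culture. Replicates are not said to come from separate mice, and p-values therefore measure only the spread between these samples, which may be technical.

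LPS, a component of the outer membrane of Gram-negative bacteria, is sensed by Tlr4 on macrophages. The receptor signals through Myd88 to NF-kB and the MAP kinases, which induce cytokines, chemokines and feedback inhibitors within hours, and through Ticam1 to Irf3 and type I interferon, which induces antiviral genes later. Many induced transcripts are short-lived and their levels drop when transcription stops, while others accumulate late. LPS is also known to halt the division of macrophages that grow in CSF1.

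Levels are log2 of the deposited intensity. Differences are in log2 units, 24 h minus 8 h, ± SE from limma with n = 2 arrays per group, and p-values are adjusted over 18820 genes. Calls required a change of 1 log2 or more in size and an adjusted p under 0.05, and genes that met both are said to have risen or fallen. Array medians lay between 25.6 and 29.0 on the linear scale, and 2 arrays per group limit the precision of every value. Macrophage markers were high in all 4 arrays. Lyz2 (lysozyme) lay between 13.08 and 13.28, Cd68 between 12.80 and 12.97, Csf1r (the CSF1 receptor) between 12.31 and 12.60, and the adhesion receptor gene Adgre1 between 12.59 and 13.04. Cd163, a scavenger receptor of resident macrophages, lay between 3.41 and 3.61, under the 40th percentile of all values (4.49), so this marker was absent or near background.

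Both 24 h arrays stand apart from the rest in different ways. Replicate 1 carried transcripts that mark BALB/c. Of 12 genes whose level in each BALB/c group exceeded that in the C57BL/6 groups by more than 1.5 log2, 10 were higher in replicate 1 than in replicate 2, with means of 6.14 and 5.49. Apart from this array and 1 at 24 h of 5 ng/ml, the other 30 C57BL/6 arrays had means between 5.19 and 5.69, and BALB/c arrays between 9.41 and 10.04. In 4 genes replicate 1 lay above all 30, and there it stood at 2.69 to 9.69% of the BALB/c intensity at 24 h of LPS. Hal was at 6.77 in replicate 1 and 5.17 in replicate 2, Ifi44l at 6.13 and 4.06, Ifi202b at 5.54 and 3.97, and H2-Ea at 5.13 and 4.64. Replicate 2 stands apart in probe sets that have no gene. The first component of their replicate differences, with 11.4% of the variance, parts 11 arrays from the other 53, and replicate 2 of 24 h is among the 11 while the other 3 arrays compared here are not. At 5 ng/ml, 24 h replicate 2 carried the BALB/c-marking transcripts more strongly, with a mean of 7.26. Results are therefore given with and without each 24 h array where these change them. The spread behind every SE is pooled over all 32 groups, and the 1 h arrays at 0.5 and 50 ng/ml differed between replicates in late LPS genes. Lcn2 was at 11.05 and 7.46 at 1 h of 50 ng/ml, and at 9.53 and 6.63 at 1 h of 0.5 ng/ml. Without those 4 arrays 588 genes were called, among them all 584 reported here, with an SE for Lcn2 of 0.35 in place of 0.63.

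**Figure D1:**
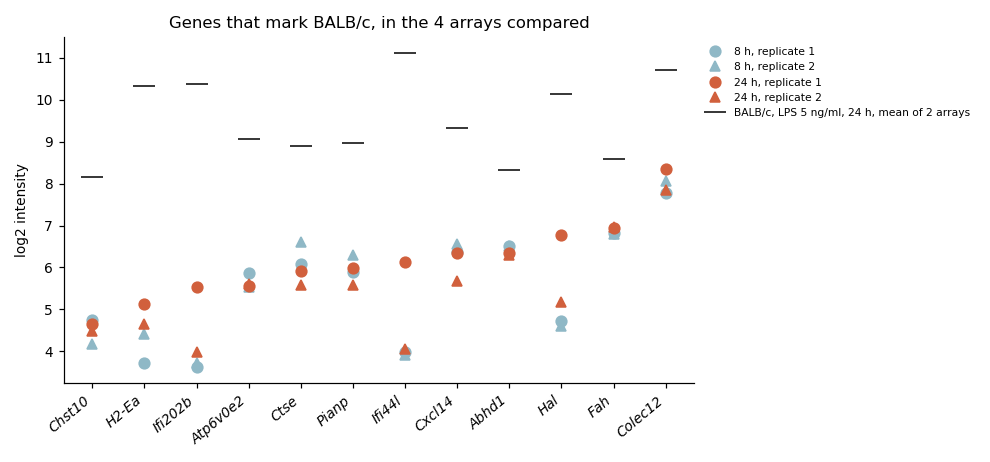
Log2 intensity (y axis) of the 12 genes that mark BALB/c (x axis) in the 2 arrays at 8 h and the 2 at 24 h of LPS 0.5 ng/ml, with the mean of BALB/c at 24 h of LPS 5 ng/ml as a dash. Hal, Ifi44l, Ifi202b and H2-Ea are highest in 24 h replicate 1 (6.77, 6.13, 5.54 and 5.13), and in every gene shown all 4 arrays lie below the BALB/c mean.

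Between 8 and 24 h at 0.5 ng/ml, transcripts of cell division fell most, a small group of LPS-induced transcripts came down, and a set of late genes such as Ly6i, Slfn4, Lcn2 and Hp rose. Most LPS-induced genes passed the test in neither direction, yet larger shares of them passed than of all genes. Of 143 genes induced between 2 and 4 h 14% fell and 3.5% rose. Of 1132 genes induced in BALB/c 4.33% fell and 6.27% rose, beside 1.73% and 1.37% of all genes. In all, 584 of 18820 genes (3.1%) were called, 258 (1.37%) higher and 326 (1.73%) lower at 24 h, beside a median change over all genes of 0.01. In each of the 584 both 24 h arrays lay beyond both 8 h arrays. In bulk RNA, fewer cells of a type and less RNA per cell cannot be told apart, here or in any result that follows. Without 24 h replicate 1, 682 genes were called, of which 527 were shared with the 584 (90.2%). Without 24 h replicate 2, 577 were called and 476 shared. A core of 404 genes (165 higher, 239 lower) was called with all arrays and without each of the 4 in turn.

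Resolution of the LPS response was read in genes known to be induced by LPS in arrays other than the 4 compared. At 0.5 ng/ml itself 143 genes (0.76%) were higher at 4 h than at 2 h. The 2 h wells were the reference because the untreated 0 h arrays of C57BL/6 held LPS-induced transcripts. For Cd40 these gave 10.41 and 10.22, above the 8.38 and 8.07 at 1 h of 0.5 ng/ml, and Il12b gave 7.23 and 7.31 against 5.13 and 4.45. In BALB/c, 1132 genes (6.01%) were higher at 1, 2, 4 or 8 h of LPS 5 ng/ml than at 0 h.

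Of the 143 genes induced between 2 and 4 h, 20 (14%) fell from 8 to 24 h, 5 rose and 118 were not called, with a median change of -0.17. Of the 1132 BALB/c-induced genes, 49 (4.33%) fell and 71 (6.27%) rose, with a median of -0.03. The background was 1.73% lower and 1.37% higher over all genes. At an unadjusted p under 0.05, given here beside several counts of calls, 11.6% of all genes were lower and 15.2% higher at 24 h. Few genes that peaked early in BALB/c fell in this interval, but counts this low lie around the 1.73% of all genes. Among 65 that peaked at 1 h 2 fell, and among 68 that peaked at 2 h limma called 0 lower. At an unadjusted p under 0.05, 16 of the 65 and 24 of the 68 were lower, beside 11.6% of all genes. Called lower at 24 h than at 2 h were 17 of the 65 and 13 of the 68, beside 4.1% of all genes. Of 211 genes with a peak at 4 h 19 fell, and of 788 with a peak at 8 h 28 fell. Both 24 h arrays touch these counts. Without replicate 1, 29 of the 143 and 70 of the 1132 fell, and without replicate 2, 11 and 31.

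A total of 50 genes were both LPS-induced by either definition and lower at 24 h than at 8 h. Without 24 h replicate 1, 47 of the 50 were still called, and those lost were the interferon regulatory factor Irf1 (-0.91), the sterol enzyme Idi1 (-0.87) and Rtn1 (-0.93). Without 24 h replicate 2, 29 were still called, and the 21 lost included Ccl17, Cd40, Csf1, Egr2, Lipg, Pdgfrb and Tlr2. Against the 2 h wells of the same dose, a comparison that shares the 24 h arrays, 5 of the 50 were still higher (Ccl17, Cd40, Il12b, Lipg and Pdgfrb), 4 were lower (Atp2b4, Cd83, Egr2 and Phldb1), and 41 were called neither way. Over all genes 3.9% were higher and 4.1% lower at 24 h than at 2 h. Among all fallen genes those still higher numbered 5, and 1 without 24 h replicate 2.

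Surface molecules of antigen presentation were among the genes that fell. Cd83, an activation marker of antigen-presenting cells, was at 9.51 and 9.57 at 8 h and 7.76 and 7.12 at 24 h, and fell by 2.10 ± 0.27 (4.29-fold, adjusted p = 9.6e-08). Icosl, the ligand of the T cell receptor ICOS, went from 10.12 and 10.28 to 8.51 and 8.43 and fell by 1.73 ± 0.12 (adjusted p = 1.5e-14). Its replicates lay close together at each time, and the 24 h arrays were far below those at 8 h. Cd40, the receptor through which T cells license these cells, gave 11.42 and 11.47 and then 10.46 and 10.37. It fell by 1.03 ± 0.25 (adjusted p = 0.0025), just past the size threshold, and missed it without 24 h replicate 2 (-0.99). In the same list of 21 co-stimulation, checkpoint and adhesion genes 3 rose, among them Cd86, the ligand of Cd28, from 7.70 and 7.60 to 8.64 and 8.83 (1.09 ± 0.17, adjusted p = 5.5e-06). The list therefore split, with 3 members lower, 3 higher and a median of -0.12.

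Among secreted factors 4 of 45 measured cytokine and chemokine genes fell, beside 1.73% of all genes. Ccl17 and Csf1, both lost without 24 h replicate 2, then changed by -1.03 and -1, Il12b by -1.43 and Cx3cl1 by -1.24. Il12b, which encodes the subunit shared by Il12 and Il23, was at 9.09 and 9.11 at 8 h and 7.67 and 7.62 at 24 h, and fell by 1.46 ± 0.31 (adjusted p = 6.2e-04), yet stayed above its 2 h mean of 6.05. Csf1, the growth factor itself, went from 10.70 and 10.69 to 9.69 and 9.28 and fell by 1.21 ± 0.16 (adjusted p = 2.4e-07). Both 24 h arrays were below 8 h, replicate 2 further than replicate 1. Ccl17, a ligand of Ccr4, gave 7.76 and 7.78 and then 6.74 and 5.59, a fall of 1.60 ± 0.39 (adjusted p = 0.0022) in which the 24 h arrays differed from each other by more than 1 log2. Cx3cl1, the membrane-bound chemokine of Cx3cr1, went from 7.30 and 7.37 to 6.09 and 5.93 and fell by 1.32 ± 0.17 (adjusted p = 1.0e-07).

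**Figure D2:**
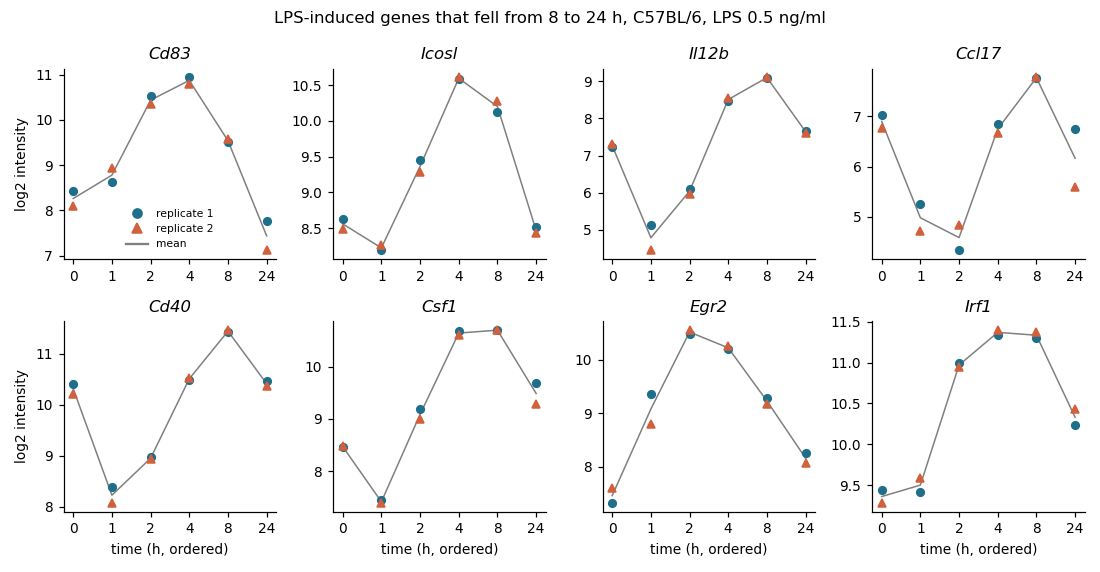
Log2 intensity (y axis) of 8 LPS-induced genes at 0, 1, 2, 4, 8 and 24 h (x axis, times in order and not to scale) in C57BL/6 cells, with LPS 0.5 ng/ml after 0 h. Circles are replicate 1, triangles replicate 2 and lines the means of the 2. All 8 are lower at 24 h than at 8 h, the 0 h arrays hold LPS-induced transcripts (Cd40 at 10.41 and 10.22), and Ccl17 shows the widest gap between the 24 h arrays (6.74 and 5.59).

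Transcription factors and receptors made up another share of the 50. Egr2, an immediate early zinc finger factor, went from 9.28 and 9.18 to 8.25 and 8.07 and fell by 1.07 ± 0.21 (adjusted p = 1.3e-04). It had been at a mean of 10.52 at 2 h, so its decline was under way before 8 h. Irf1, which drives interferon-responsive promoters, gave 11.30 and 11.37 and then 10.23 and 10.43, and fell by 1.01 ± 0.12 (adjusted p = 3.6e-08). Tfec, a macrophage factor of the Mitf family, went from 11.58 and 11.55 to 10.27 and 10.17 (-1.35 ± 0.11). The lipoprotein receptor gene Tlr2 went from 11.66 and 11.71 to 10.74 and 10.54 (-1.04 ± 0.14). In each of these both 24 h arrays lay clearly below both at 8 h. Enzymes and transporters fell as well. The calcium pump gene Atp2b4 went from 6.49 and 6.52 to 4.07 and 4.15 (-2.39 ± 0.22), and B3gnt5, which builds glycolipids, from 6.50 and 6.76 to 4.28 and 4.58 (-2.20 ± 0.20). Both had a 24 h mean under the 40th percentile, so the size of these 2 falls is only a lower bound. Atp2b4 was induced in BALB/c only. At 0.5 ng/ml its means were 6.65 at 2 h, 6.99 at 4 h and 6.50 at 8 h, with no called rise from 2 to 4 h. Nox1, an NADPH oxidase, went from 8.56 and 8.78 to 7.23 and 7.21 (-1.45 ± 0.13).

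Promoter sequence was examined because NF-kB, the main factor below Tlr4, binds a known element. The kB pattern, GGG followed by any 2 bases, TT, any base and CC, on either strand of the 250 bases before the start site, was in 4 of the 41 of these 50 genes that have a RefSeq promoter (9.76%), beside 615 of 14749 promoters of all genes tested (4.17%). It was also in 3 of 18 promoters of the mitosis list described further on (16.7%), in 6.5% of those of risen genes and in 5.13% of those of the other fallen genes. A match is a description of the sequence, not a site shown to be bound. The 4 stretches with a match are printed 5′ to 3′ from RefSeq, GRCm38.p6, with the match in capitals.
Csf1, chr3:107760589-107760648, minus strand: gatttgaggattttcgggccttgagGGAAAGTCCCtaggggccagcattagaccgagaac
Nox1, chrX:134111912-134111970, minus strand: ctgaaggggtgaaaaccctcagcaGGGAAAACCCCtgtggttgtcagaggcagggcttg
Plagl1, chr10:13090719-13090778, plus strand: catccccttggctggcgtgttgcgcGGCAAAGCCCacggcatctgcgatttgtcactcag
Tlr2, chr3:83841746-83841805, minus strand: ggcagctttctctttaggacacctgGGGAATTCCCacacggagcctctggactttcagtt

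Most inflammatory cytokine and chemokine genes were called in neither direction between 8 and 24 h of the low dose. Tnf, the first cytokine of the response, was at 13.01 and 12.96 at 8 h and 12.44 and 12.56 at 24 h, a difference of -0.49 ± 0.14 that missed the size threshold (adjusted p = 0.0092). Il6 gave 8.24 and 8.64 and then 8.16 and 7.65 (-0.54 ± 0.56, adjusted p = 0.62), with a wide spread between arrays and 24 h levels just under those at 8 h. Nos2, the inducible nitric oxide synthase, gave 10.51 and 10.78 and then 11.39 and 10.83 (0.47 ± 0.86, adjusted p = 0.80), well above its 2 h mean of 4.10. Cxcl10, a chemokine for T cells, gave 12.89 and 13.00 and then 12.46 and 12.74 (-0.34 ± 0.26, adjusted p = 0.45). These 4 were named after their values were seen. Of the 25 cytokine genes 2 fell, 3 rose and 20 were not called. At an unadjusted p under 0.05 7 were lower and 6 higher, and 15 were called higher at 24 h than at 2 h. At 5 and at 50 ng/ml 9 of the 25 fell. Those that rose were Csf3, the granulocyte growth factor, from 4.69 and 4.85 to 6.61 and 6.36 (1.71 ± 0.14), the activin subunit Inhba (1.74 ± 0.31) and the antagonist Il1rn (1.03 ± 0.16). Among 20 chemokines Ccl17 and Cx3cl1 fell and Cxcl11, a ligand of Cxcr3, rose from 6.12 and 6.56 to 8.05 and 8.23 (1.80 ± 0.21).

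Few feedback and signalling genes were called, but so were few of all genes (3.1%), and low counts alone do not mark these lists. Of 21 genes of the NF-kB pathway and its brakes limma called 0, with a median of -0.32. At an unadjusted p under 0.05 14 of the 21 were lower and 2 higher, beside 11.6% and 15.2% of all genes. Tnfaip3, an inhibitor of NF-kB, was at 10.71 and 10.71 at 8 h and 10.09 and 10.01 at 24 h (-0.66 ± 0.13, adjusted p = 1.0e-04), and the minimum change alone kept it from a call. Of 10 mRNA decay factors 0 were called and 5 were lower at an unadjusted p under 0.05, with the largest difference in Zfp36 (-0.76), which encodes tristetraprolin. Of 27 immediate early and phosphatase genes Egr2 fell while Dusp6 (1.11 ± 0.14) and Egr1 (1.27 ± 0.22) rose. Egr1 went from 5.41 and 5.28 to 6.68 and 6.55, still below its 2 h mean of 7.73. Of 26 pattern recognition genes Tlr2 alone was called, with 4 lower and 9 higher at an unadjusted p under 0.05.

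Antiviral effectors were still above their 2 h levels at 24 h. Of 30 antiviral effectors 29 were higher at 24 h than at 2 h, and from 8 to 24 h limma called 0 higher and 1 lower, with a median of 0.14 and 7 higher at an unadjusted p under 0.05. Ifit1, an RNA sensor, was at 11.26 and 11.41 at 8 h and 11.31 and 11.54 at 24 h, against a 2 h mean of 6.72. The member that fell was Ifi27, from 9.10 and 8.83 to 7.88 and 7.63 (-1.21 ± 0.14), whose 2 h mean of 9.14 was close to its 8 h level. Of 21 interferon signalling genes Irf1 fell and 20 were not called, with 5 lower and 3 higher at an unadjusted p under 0.05, and 5 of the 21 were higher at 24 h than at 2 h. Among 8 interferon-inducible GTPases Gbp4 rose from 6.57 and 6.69 to 8.16 and 8.26 (1.58 ± 0.33, adjusted p = 4.7e-04), and all 8 were higher at 24 h than at 2 h. Of 15 genes of MHC class I processing limma called 0, and 8 were higher at an unadjusted p under 0.05, with a median of 0.28 and 13 above their 2 h level by the same call rule. Of 7 MHC class II genes it called 0, with 1 higher and 1 lower at an unadjusted p under 0.05, and against 2 h limma called 0 higher.

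**Figure D3:**
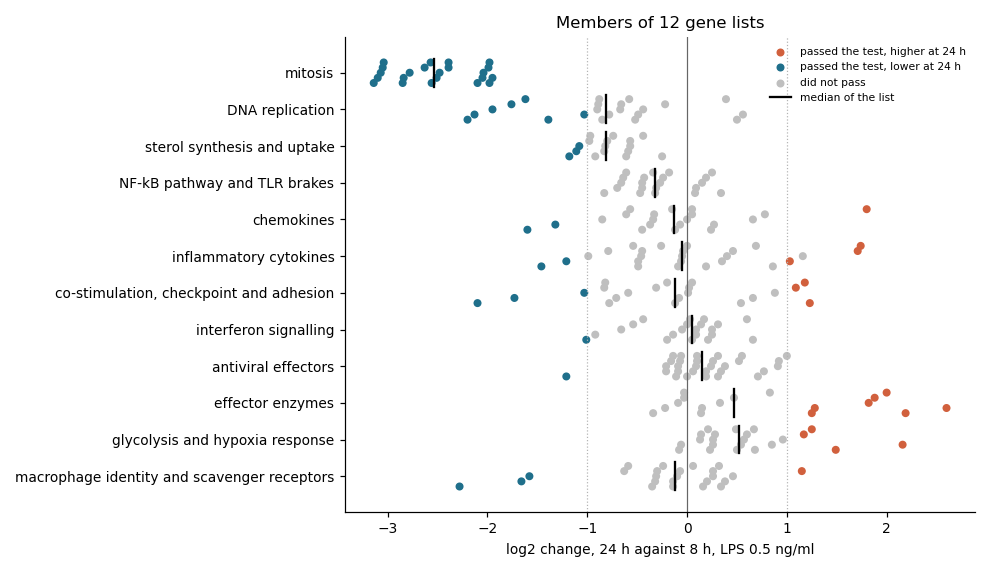
Log2 change from 8 to 24 h at LPS 0.5 ng/ml (x axis) for each measured member of 12 gene lists (y axis), with dotted lines at -1 and 1 and a black bar at the list's median. All 22 mitosis genes lie between -3.14 and -1.95, while antiviral effectors centre at 0.14, glycolysis and hypoxia genes at 0.52 and effector enzymes at 0.47.

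The same interval at higher doses shows where the low dose differs. The difference of changes was tested directly, the change at 0.5 ng/ml minus the change at 50 or 5 ng/ml, and both tests share the 0.5 ng/ml arrays. Against 50 ng/ml 212 genes (1.13%) were positive and 137 (0.728%) negative, and against 5 ng/ml 126 (0.67%) were positive and 117 (0.622%) negative. Against 5 ng/ml the 243 calls became 147 with a pseudocount of 16 and 41 in a fit of only the arrays compared. Of the 143 genes induced between 2 and 4 h, 14 were positive and 0 negative by limma against each dose (9.79%). At an unadjusted p under 0.05 10 of the 143 were negative against 50 ng/ml, beside 9.98% of all genes, and 3 against 5 ng/ml, beside 9.09%. Their falls numbered 20 at 0.5, 47 (32.9%, background 2.78%) at 5 and 40 (28%, background 3.03%) at 50 ng/ml. Without 24 h replicate 1 the 3 counts were 29, 46 and 40, and without 24 h replicate 2 they were 11, 46 and 40. Of the 45 cytokine and chemokine genes 9 were positive against 50 ng/ml and 12 against 5 ng/ml, with 0 negative in each, also at an unadjusted p under 0.05. Of the 50 genes that came down at the low dose, 13 had a positive difference against 50 ng/ml and 10 against 5 ng/ml.

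The difference lay mostly in the 8 h levels. Of the 212 genes positive against 50 ng/ml, 184 (86.8%) had both low dose arrays below both 50 ng/ml arrays at 8 h, beside 29.2% of all genes. At 24 h 120 of them (56.6%) lay above and 36 below, beside 24.4% and 23.7% of all genes. These levels enter the difference itself, so the counts describe it and are no further test. Upp1, uridine phosphorylase, was at 6.12 and 6.50 at 8 h and 8.11 and 8.28 at 24 h with 0.5 ng/ml. With 5 ng/ml it gave 8.50 and 8.41 and then 8.23 and 7.60, and with 50 ng/ml 8.90 and 8.94 and then 8.00 and 7.99. Its rise at the low dose therefore met a small decline at the others, a difference of 2.80 against 50 ng/ml (adjusted p = 1.3e-08) and 2.42 against 5 ng/ml (adjusted p = 4.4e-07). Edn1, endothelin, gave 6.88 and 7.52 and then 8.00 and 7.78 at 0.5 ng/ml, with no call (0.69, adjusted p = 0.18). At 5 ng/ml it dropped from 10.55 and 10.56 to 8.14 and 7.96, and at 50 ng/ml from 10.76 and 10.69 to 8.76 and 8.69. The doses were thus far apart at 8 h and close at 24 h. Cd86 had 8 h levels of 7.70 and 7.60 at the low dose, 9.01 and 9.08 at 5 ng/ml and 9.48 and 9.50 at 50 ng/ml, and its 24 h levels in all 3 doses lay between 8.62 and 8.85.

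Il10, the main anti-inflammatory cytokine, went from 4.08 and 4.79 to 5.45 and 5.13 at 0.5 ng/ml and from 7.87 and 7.73 to 6.36 and 6.64 at 50 ng/ml (difference 2.15, adjusted p = 1.2e-05). Il10 lay below the high dose level at both times. At 8 h of 0.5 ng/ml 1 of its arrays (4.08) was under the 40th percentile of all values (4.49), so the size of this difference is uncertain. Ccr1, a chemokine receptor, went the other way at 24 h, from 5.50 and 5.51 to 6.99 and 7.45 at 0.5 ng/ml, and from 6.52 and 6.44 to 5.79 and 5.55 at 50 ng/ml (difference 2.52, adjusted p = 1.1e-04). Its 24 h level was thus highest with the lowest dose. Ifitm6 was also highest at 24 h with the lowest dose, at 9.82 and 10.07, against 8.94 and 9.18 at 50 ng/ml. Unlike Ccr1 it was higher at 24 h than at 8 h of 50 ng/ml (8.12 and 8.07). The monocyte chemokine gene Ccl12 gave 6.22 and 6.48 and then 6.89 and 7.36 at 0.5 ng/ml, and dropped from 7.85 and 7.87 to 6.16 and 6.18 at 5 ng/ml (difference 2.47, adjusted p = 1.1e-05). Plagl1, a zinc finger factor, fell at all 3 doses, by 1.34 at 0.5, by 2.76 at 5 and by 3.71 at 50 ng/ml. Its 24 h levels lay between 4.84 and 5.47 in the 6 arrays, so the doses differed in the height from which it dropped.

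Of the 137 genes negative against 50 ng/ml, 133 (97.1%) had both low dose arrays above both 50 ng/ml arrays at 8 h, beside 30% of all genes. At 24 h 64 of them (46.7%) lay below and 23 above, beside 23.7% and 24.4% of all genes. Here too the levels enter the difference itself, so the counts are no further test. Bhlhe40, a circadian and hypoxia-responsive repressor, was at 7.67 and 7.79 at 8 h of 0.5 ng/ml and 5.75 and 6.25 at 8 h of 50 ng/ml, and at 24 h it lay between 8.19 and 8.33 in both (difference -1.74, adjusted p = 1.9e-04). Nbeal2, needed for platelet granules, gave 7.58 and 7.40 and then 8.84 and 8.50 at 0.5 ng/ml, against 6.19 and 5.93 and then 8.77 and 8.88 at 50 ng/ml (difference -1.59, adjusted p = 0.0016). In both genes the arrays of the doses do not overlap at 8 h. At 5 ng/ml one array carries BALB/c transcripts, and Cxcr4 (difference -1.97) is a gene where it stands out, with 8.00 in that array and 6.36 in the other. Without it the difference for Cxcr4 was -1.16 (adjusted p = 0.014), and all 16 genes named for this difference were still called. Without both arrays with BALB/c transcripts 359 genes were called in place of 243.

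**Figure D4:**
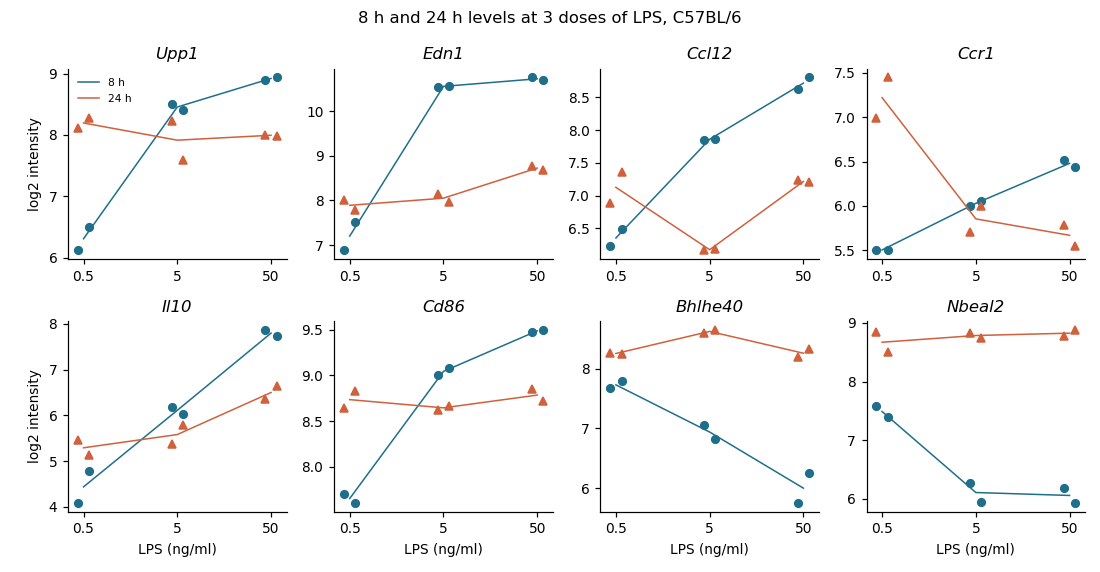
Log2 intensity (y axis) at 8 h (blue circles) and 24 h (red triangles) for LPS at 0.5, 5 and 50 ng/ml (x axis, ordered) in C57BL/6 cells, each point 1 array and each line the mean of 2. Upp1, Edn1, Ccl12, Il10 and Cd86 climb with dose at 8 h, and Bhlhe40 drops with dose at 8 h. Nbeal2 at 8 h is lower at 5 and 50 than at 0.5 ng/ml, and Ccr1 at 24 h is highest at 0.5 ng/ml (6.99 and 7.45).

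The largest falls of the interval were in genes of cell division. All 22 measured mitosis genes fell, with a median of -2.54, and all 22 fell with each of the 4 arrays left out in turn. Ccnb2, a B-type cyclin of mitotic entry, was at 11.12 and 11.17 at 8 h and 8.61 and 7.59 at 24 h, and fell by 3.05 ± 0.25 (8.26-fold, adjusted p = 3.7e-12). Cdc20, the activator of the anaphase-promoting complex, went from 9.28 and 9.20 to 6.75 and 5.53 (-3.10 ± 0.20), and the mitotic kinase Plk1 from 10.01 and 9.80 to 7.26 and 6.40 (-3.07 ± 0.29). In these 3 genes replicate 2 of 24 h lay about 1 log2 below replicate 1, and both lay more than 2 log2 below 8 h. Mki67, the proliferation antigen, went from 10.42 and 10.48 to 8.27 and 7.68 (-2.48 ± 0.12). The single largest fall was in Iqgap3, a scaffold of Rac and Cdc42, from 9.82 and 9.88 to 6.73 and 5.95 (-3.51 ± 0.24, 11.4-fold). Prr11 (-3.46), the kinesin Kif2c (-3.34), Cdca3 (-3.24), Pimreg (-3.22) and the centrosomal kinase Nek2 (-3.15) followed, and 5 of the 16 largest falls were members of the mitosis list.

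DNA replication genes moved less. Of 22 measured 7 fell and 15 were not called, with a median of -0.81. At an unadjusted p under 0.05 18 of the 22 were lower and 3 higher, beside 11.6% and 15.2% of all genes. Mcm10, a factor of replication initiation, went from 8.06 and 8.17 to 6.05 and 5.79 (-2.20 ± 0.15), and the thymidine kinase Tk1 from 8.87 and 8.91 to 7.07 and 6.46 (-2.13 ± 0.21). Against 2 h, 20 of the 22 were lower at 24 h. Tk1 had a 2 h mean of 10.37 and the ribonucleotide reductase subunit Rrm2 one of 11.03 against 9.23 and 9.15 at 8 h, so these had already declined before 8 h, while Ccnb2 (11.44 at 2 h) had hardly moved. All 22 mitosis genes also fell at 5 and at 50 ng/ml. Few of the 22 differed between doses, and in different directions. Against 50 ng/ml 1 was positive and 0 negative, and against 5 ng/ml 0 were positive and 2 negative. Mki67 fell more at 0.5 ng/ml than at 5 ng/ml (difference -1.11, adjusted p = 2.8e-05). Its difference against 50 ng/ml was -0.91, short of the size threshold. Ccnb2 fell less than at 50 ng/ml (difference 1.65, adjusted p = 0.0022), with no call against 5 ng/ml (0.80, adjusted p = 0.23).

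Cell cycle promoters are known for CCAAT boxes, bound by NF-Y, and for the CHR element, bound by the DREAM and MuvB complexes. The letters CCAAT, on either strand of the 250 bases before the start, were in 15 of 18 mitosis genes with a promoter in RefSeq (83.3%) and in 35.7% of all 14749 promoters. The CHR letters TTTGAA were in 6 of the 18 (33.3%) against 13.7% of all. Among the 276 fallen genes that LPS had not induced, 234 had a promoter, and 57.7% of these held the CCAAT letters and 24.8% the CHR letters. For fallen LPS-induced genes the shares were 39.0% and 4.88%, and for risen genes 30.5% and 15.0%. The pattern of the interferon element, a pair of GAAA with any 2 bases between, was in 2.99% of the fallen genes not induced, 6.0% of the risen and 2.94% of all. Stretches that hold both cell cycle motifs are printed for 4 of the 6 mitosis genes with the CHR letters. They run 5′ to 3′ from RefSeq, GRCm38.p6, with both motifs, on either strand, in capitals.
Ccnb2, chr9:70421571-70421721, minus strand: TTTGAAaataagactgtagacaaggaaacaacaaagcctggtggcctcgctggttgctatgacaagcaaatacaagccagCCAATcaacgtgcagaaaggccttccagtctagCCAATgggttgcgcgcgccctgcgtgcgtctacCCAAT
Cdc20, chr4:118437344-118437401, minus strand: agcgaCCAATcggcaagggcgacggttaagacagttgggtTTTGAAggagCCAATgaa
Kif11, chr19:37376323-37376381, plus strand: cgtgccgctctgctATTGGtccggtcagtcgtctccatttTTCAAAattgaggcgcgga
Mki67, chr7:135716472-135716567, minus strand: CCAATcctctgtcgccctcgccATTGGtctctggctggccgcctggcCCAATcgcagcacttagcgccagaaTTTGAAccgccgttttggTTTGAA

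Genes of sterol synthesis and uptake were lower as a group, and a few macrophage identity genes fell. All 16 sterol genes were below 0, with a median of -0.81. At an unadjusted p under 0.05 all 16 were lower, beside 11.6% of all genes. Of the 16, 3 passed the test, beside 1.73% of all genes lower. These were Idi1 (-1.18 ± 0.32), Hmgcs1 (-1.11 ± 0.13) and Cyp51 (-1.08 ± 0.10), all enzymes of cholesterol synthesis. Cyp51 went from 10.49 and 10.55 to 9.51 and 9.37, near its 2 h mean of 9.68. Mrc1, the mannose receptor, went from 10.45 and 10.51 to 8.46 and 7.94 and fell by 2.28 ± 0.15 (adjusted p = 3.5e-15), and by more at 50 ng/ml (difference 1.23, adjusted p = 9.4e-05). The Fc receptor-like gene Fcrls (-1.66 ± 0.18) and Gas6, a ligand of Mertk and Axl (-1.58 ± 0.15), fell too, and Fcgr1, the high-affinity IgG receptor, rose from 10.03 and 10.11 to 11.14 and 11.31 (1.15 ± 0.16). The other 20 of 24 macrophage identity genes were not called. At an unadjusted p under 0.05 6 of the 24 were lower and 5 higher. Of 19 lysosome genes limma called 0 (1 lower and 5 higher at an unadjusted p under 0.05), and of 11 sterol efflux genes 0 (1 lower and 2 higher), with medians of 0.07 and 0.22.

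Late genes rose between 8 and 24 h at the low dose. Ly6i, a GPI-anchored protein of the Ly6 family, was at 4.86 and 4.74 at 8 h and 9.17 and 9.66 at 24 h, and rose by 4.61 ± 0.48 (24.5-fold, adjusted p = 9.0e-10). Slfn4, a Schlafen gene, went from 6.11 and 6.04 to 9.62 and 9.50 (3.48 ± 0.46), and the cytokine gene Il1f9 from 4.78 and 5.53 to 8.62 and 8.59 (3.45 ± 0.31). In all 3 the 24 h arrays were more than 3 log2 above 8 h and close to each other. Next were Susd2 (3.36 ± 0.68), Il23r (3.28 ± 0.31), Slamf6 (3.18 ± 0.28), Slfn1 (2.97 ± 0.58) and Serpinb2, a plasminogen activator inhibitor (2.83 ± 0.24). Il23r, the receptor of Il23, was under the 40th percentile at 8 h (3.52 and 3.77). Haptoglobin, Hp, went from 6.70 and 6.16 to 9.23 and 9.23 (2.80 ± 0.43), and the lectin receptor gene Clec4n from 7.07 and 6.83 to 9.54 and 9.80 (2.72 ± 0.20). Of the 258 risen genes 183 were also higher than at 2 h, 74 were called neither way and 1, Egr1, was lower.

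Effector genes of host defence were among those that rose. Of 17 measured 7 rose and 0 fell by limma, with 0 lower at an unadjusted p under 0.05 and a median of 0.47. Lcn2, which binds bacterial siderophores, went from 9.59 and 9.54 to 11.96 and 12.38 (2.60 ± 0.63, adjusted p = 0.0024). Slpi, a protease inhibitor, went from 6.56 and 6.50 to 9.01 and 8.42 (2.19 ± 0.29), and the copper oxidase Cp from 6.04 and 5.54 to 7.86 and 7.72 (2.00 ± 0.37). The scavenger receptor Marco (1.82 ± 0.36), the cholesterol hydroxylase Ch25h (1.28 ± 0.21), the prostaglandin synthase Ptges (1.25 ± 0.43) and Upp1 completed the 7. Lcn2 and the gelatinase gene Mmp9 (2.39) are also granulocyte markers, and these 2 of 16 granulocyte markers rose. The summed linear intensity of the 16 went from 1833 and 1811 to 5412 and 6964, and that of the other 14 from 996 and 1007 to 1102 and 1306. Of the 16, 8 lay above 0 and 8 below, 4 were higher and 3 lower at an unadjusted p under 0.05, and 5 were dim in all 4 arrays. The collagenase gene Mmp8 went from 8.40 and 8.65 to 8.69 and 9.25, the receptor gene Csf3r from 8.37 and 8.25 to 8.74 and 8.78, and S100a8 from 5.30 and 5.39 to 5.74 and 5.58, none of them called. S100a9 went from 5.54 and 4.92 to 4.40 and 4.82, Mpo from 5.18 and 4.86 to 4.32 and 4.29 and Ngp from 5.96 and 5.52 to 4.80 and 4.82, also without a call. The part of granulocytes in the rise of Lcn2 and Mmp9 was not tested. Of 9 lymphoid markers limma called 0, with 0 at an unadjusted p under 0.05, and of 7 erythroid and megakaryocyte markers 0, with 1 lower at an unadjusted p under 0.05.

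Of 22 genes of glycolysis and the response to low oxygen 4 rose, 20 lay above 0 and 17 were higher at an unadjusted p under 0.05, with a median of 0.52. Egln3, an oxygen-sensing prolyl hydroxylase, went from 6.01 and 5.98 to 8.36 and 7.96 (2.16 ± 0.21, adjusted p = 1.3e-10). Slc16a3, the lactate exporter, went from 9.68 and 9.81 to 11.26 and 11.21 (1.49 ± 0.08), Bnip3, of mitophagy, rose by 1.25 ± 0.14, and the phosphofructokinase Pfkl by 1.17 ± 0.14. At 5 ng/ml 6 of the 22 rose (background 3.08%), and at 50 ng/ml 7 (background 3.17%).

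Leaving out 24 h replicate 1 raised the number of calls and replaced some of them. Of the 584 genes 57 were lost (45 higher and 12 lower at 24 h) and 155 gained (78 higher and 77 lower), and none turned direction. The 6 lost genes with the largest shift had all risen, so their choice fixes that replicate 1 lies above replicate 2. Sel1l3 rose by 1.17 with all arrays and 0.77 without replicate 1, Plcb4, a phospholipase, by 1.31 and 0.96, and the arginine transporter Slc7a2 by 1.12 and 0.79. The other 3 were Trim46, Cntnap1 and Foxred2. Their BALB/c means at 24 h of LPS ran from 7.24 in Cntnap1 to 11.55 in Slc7a2. Replicate 1 lay well below that mean in Slc7a2 (9.79), close to it in Sel1l3 (7.77 against 7.80) and above it in Foxred2 (9.07 against 8.77). The 6 named gains included Cish, a brake on cytokine signalling, which went from -0.92 to -1.40, and Rps19 from -0.56 to -1.20. Both were lower in replicate 2 (5.65 and 9.60) than in replicate 1 (6.61 and 10.89), so their calls without replicate 1 rest on replicate 2 alone. The part of BALB/c RNA in these shifts was not tested. Without 24 h replicate 2, 108 genes were lost (40 higher, 68 lower) and 101 gained, and with the array set as a covariate 594 were called.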

How the data were processed

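Total RNA of each culture was labelled and hybridised to its own Affymetrix array, and the authors deposited the intensity of each probe set on a linear scale, made with Affymetrix Expression Console 1.1, per the submitters' processing notes. The method of background correction and normalisation is not given in the sources used here. Intensities ran from 2.49 to 17782 and were used as log2, with no further normalisation. Of 35556 probe sets 21218 carried 1 gene symbol, 1881 several and 12457 none. The brightest probe set was kept for 1386 genes with several, which left 18820 genes.

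Group means of all 64 arrays (32 groups of 2) were fitted with limma 3.58.1 in R 4.3.3 and the data.table package (version 1.17.8), with 32 residual degrees of freedom, so the spread is pooled over groups. Adjustment of p-values was by Benjamini-Hochberg, over the 18820 genes of each contrast, and lists were described by counts. The members, the 31 gene lists and the alternatives were chosen with earlier results of these data known. Named genes were the 12 largest rises and 16 largest falls whose arrays did not overlap, up to 4 called members per list (or the largest change where none was called), the 8 most positive and most negative dose differences, and the 6 largest shifts on leaving out 24 h replicate 1. Members of the fallen LPS-induced genes beyond these, and other genes in lists, were named after their values were seen. Genes that mark BALB/c and the omission of both arrays that carry them and of the 1 h arrays of 0.5 and 50 ng/ml were also chosen after the data were seen. Replicate numbers did not pair the samples (correlation of deviations between 8 and 24 h -0.03). Correlation between replicates was 0.996 at 8 h and 0.994 at 24 h, and 13 and 54 genes differed by more than 1 log2.

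The fit was tested on simulated data of 18820 genes. For 24 h against 8 h, 50 of 50 genes changed by 1.5 log2 were recovered, with 1 false call among 18620, and for the difference against 5 ng/ml 43 of 50. Promoters are the 250 bases before each RefSeq start site.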

Additional observations from a re-analysis of the deposited data

Results flagged for a closer look

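The change from 8 to 24 h differed between doses by a test of the difference itself, an interaction in limma, for 349 genes between 0.5 and 50 ng/ml and for 243 genes between 0.5 and 5 ng/ml. In a fit of only the arrays compared the second count was 41. Against 50 ng/ml the most positive were Upp1 (2.80) and Edn1 (2.69) and the most negative Bhlhe40 (-1.74) and Ldlrad3 (-1.68). Against 5 ng/ml they were Edn1 (3.20) and Ccl12 (2.47), and Neurl1b (-2.09) and Cxcr4 (-1.97). For Cxcr4 the 5 ng/ml arrays at 24 h were at 6.36 and 8.00, and the second is the array with BALB/c-marking transcripts. Without it the difference was -1.16. Neurl1b was at 5.82 and 4.83 at 24 h of 0.5 ng/ml, so its replicates also differed.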

How the results depend on the processing

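With no minimum change, 3232 genes were called (1859 higher, 1373 lower), 1390 and 951 differed in change from 50 and 5 ng/ml, 924 fallen genes were below and 96 above their 2 h level, and 211 list entries passed in place of 79. The difference against 5 ng/ml dropped to 147 genes with a pseudocount of 16 and to 41 with only the arrays compared. With each array left out in turn, 577 to 682 genes were called (248 to 291 higher, 295 to 391 lower), 328 to 440 differed from 50 ng/ml and 196 to 326 from 5 ng/ml, 250 to 304 fallen genes were below 2 h and 1 to 6 above, and 74 to 83 list entries passed. Fits with the replicate block, where the numbers do not pair the samples, called 584, 345 and 236 genes. Without both arrays with BALB/c transcripts the counts were 682, 446 and 359, and with the array set as a covariate 594, 329 and 229. The share of higher genes among those called was 44.2% as deposited, 44.3% centred and 40.3% after quantile normalisation. Without the 1 h arrays of 0.5 and 50 ng/ml, an alternative chosen after seeing the data, the counts were 588, 364 and 253. Over single genes and lists 2531 values stayed on their side of the threshold, 51 crossed it upwards and 58 downwards, and 0 turned direction. The complement gene Cfb (2.41, adjusted p = 0.013) was lost without each array and with only C57BL/6 arrays. Fallen LPS-induced genes are few, the SE of Nos2 was 0.86 with all arrays and 0.47 without those 1 h arrays, and 25 fallen genes were dim at 24 h, where the size of a fall has only a bound.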

Other observations

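Other groups of stress and metabolism changed in a few members. Of 17 antioxidant genes Nqo1, a quinone reductase, rose from 7.27 and 7.41 to 9.26 and 9.22 (1.90 ± 0.16), and the glutathione transferase Gsta3 rose from 6.94 and 6.72 to 8.23 and 8.70 (1.64 ± 0.14). Of 17 genes of the ER stress and integrated stress response Dnajb9, a chaperone partner, and Trib3, a pseudokinase, each rose by 1.44. Bcl2, a survival factor, rose from 8.48 and 8.39 to 9.89 and 9.33 (1.17 ± 0.22) as 1 of 13 apoptosis regulators. Of 12 complement genes Cfb, factor B of the alternative pathway, rose from 9.34 and 9.38 to 11.87 and 11.67 (2.41 ± 0.71, adjusted p = 0.013), a call lost without each of the 4 arrays in turn (adjusted p from 0.058 to 0.075) and kept without the 1 h arrays of 0.5 and 50 ng/ml. Of 16 clock and nuclear receptor genes limma called 0, with 7 higher and 3 lower at an unadjusted p under 0.05, and of 24 genes of ribosome biogenesis and translation it called 0, with 6 higher and 3 lower.

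Among markers of other cells, Ccr7, the receptor that guides cells to lymph nodes, rose from 6.84 and 6.74 to 7.98 and 7.99 as 1 of 10 dendritic markers. Of 10 stromal markers Dcn (1.14) and Acta2 (1.08) rose and Pdgfrb (-1.10) fell, with summed intensities of 360 and 366 at 8 h and 395 and 431 at 24 h. The 1 h arrays of the same dose differed from each other in late genes. Lcn2 was at 9.53 in replicate 1 and 6.63 in replicate 2 at 1 h, Slfn4 at 6.13 and 4.73, Ly6i at 5.92 and 4.07, and Hp at 5.90 and 4.87. At 1 h of 50 ng/ml the gaps were wider, with Cfb at 10.68 and 6.12, Nos2 at 10.17 and 5.34 and Ly6i at 7.11 and 4.25. These arrays enter the pooled spread of every test.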
